A study of Drosophila melanogaster with 2 samples.

Results

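Along 5 genes of Drosophila melanogaster that encode transcription regulators, CHES-1-like, ftz-f1, hth, shn and sbb, the CG14441-eGFP fusion protein gave 61 of the 5115 peaks of the conservative series set on the 6 chromosome arms, which is 1.19%. These 5 of 13945 protein-coding genes were selected on the measured number of peak summits inside them, so that number is a description with no test. All peaks with a summit between the annotated ends of 1 of the genes were taken. The peaks came from chromatin immunoprecipitation followed by sequencing, precipitated through the GFP tag, from whole embryos of 0 to 24 h that carried an insertion expressing CG14441 fused to eGFP. There was 1 group of 2 biological replicates, no second condition, and all embryonic cell types were pooled. Sonicated fragments were of 200 to 800 bp. The control alignment was not analysed here. Read counts are not part of the lists, and the depth is therefore unknown. A peak is a region that the authors' caller took as enriched, its summit is the base of highest enrichment, and its signal is the caller's value, whose scale is not stated. The labels name the embryos as the sample and no cell type, so no marker check applies to peak lists.

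In developmental regulators of the fly, long introns commonly hold enhancers, short stretches where transcription factors bind and from which transcription of the surrounding gene is tuned by tissue and stage. Several alternative promoters in 1 gene are also usual in such loci. CG14441 itself is a gene of unknown function, so where its protein binds is known here through these peaks alone. Among the 5 genes, CHES-1-like encodes a forkhead-domain protein, and ftz-f1 a nuclear receptor that works with the pair-rule protein Ftz in the early embryo and again in the ecdysone response. The gene hth encodes a homeodomain protein of the TALE class that brings its partner Exd into the nucleus and assists Hox proteins. The gene shn encodes a large zinc-finger protein that, with the Smad proteins Mad and Med, represses brk in response to Dpp, and sbb (also called scribbler or brakeless) a nuclear protein that acts as a corepressor.

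CHES-1-like held 12 summits in 27.0 kb, ftz-f1 11 in 50.7 kb, hth 11 in 132 kb, shn 12 in 58.3 kb and sbb 15 in 79.1 kb. Per 10 kb this came to 4.44 summits in CHES-1-like, 2.17 in ftz-f1, 0.83 in hth, 2.06 in shn and 1.90 in sbb. CHES-1-like had the highest density of the 1013 protein-coding genes of 20 kb or more. Below that length were denser genes, among them CG14441 with 6.04 in 19.9 kb and CG14434 with 5.23 in 15.3 kb. The median of those 1013 genes was 1 summit and 0.21 summits per 10 kb. At least 1 internal summit was found in 13.2% of all protein-coding genes and in 55.8% of those of 20 kb or more, and since the genes were chosen by this count nothing is read from it. For ftz-f1, 9 of the 304 genes at least as long, itself included, held as many summits or more. The same count was 5 of 744 for CHES-1-like, 4 of 244 for shn, 2 of 138 for sbb and 2 of 41 for hth.

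The 3 genes nearest to each in length are given for scale, with nothing read from them, since the 5 were chosen for their counts. Beside CHES-1-like, Tusp and Piezo held 0 summits and Sap47 1. Beside ftz-f1, caps held 2, ab 1 and pHCl-1 0. The genes nearest to hth in length, Ptp61F, fru and CadN, held 7, 5 and 0. For shn the neighbours in length were Smr with 8, Pde11 with 4 and mtt with 0, and for sbb they were Hs6st with 2 and pros and Glut1 with 1 each. In all, 12 protein-coding genes held 11 summits or more. The others among these were kirre with 25 in 394 kb, CG1677 with 14, CG14441 with 12, and Raf, rdx, Tlk and CG32264 with 11 each, while just below, Tet and CG43658 held 10.

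**Figure D1:**
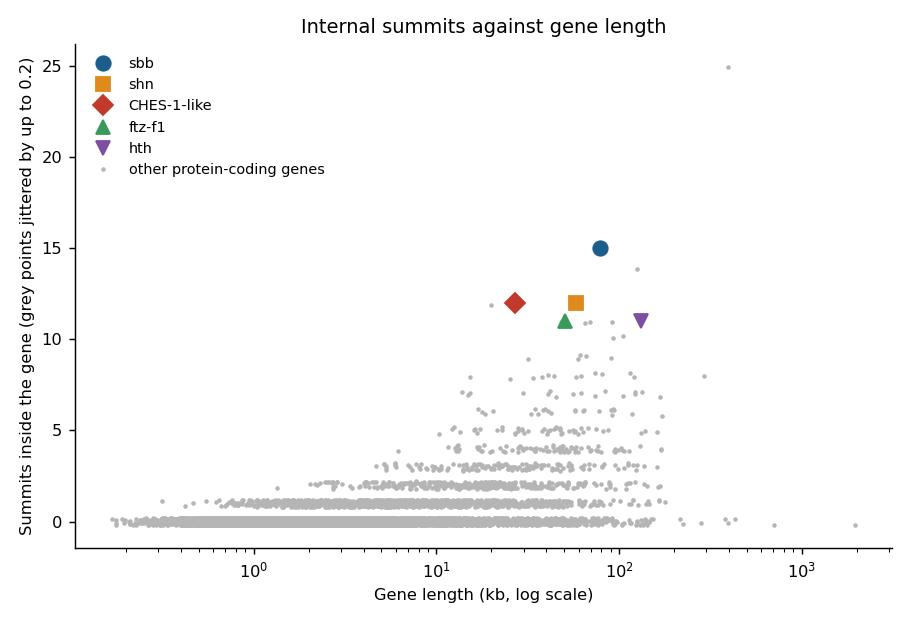
Number of summits inside each protein-coding gene (y axis) against gene length in kb (x axis, log scale). Coloured symbols are the 5 genes described, with 11 to 15 summits, and grey points the other protein-coding genes, of which kirre at 394 kb has the most with 25.

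The summits lay almost entirely in introns. Of the 61, 59 were intronic (96.7%), which is close to the 95.0% of all summits inside protein-coding genes of 20 kb or more. Only 3 of 61 (4.92%) were within 500 bp of a transcription start site of their own gene, 2 in CHES-1-like and 1 in shn, beside 12.5% over those same long genes. The difference was not tested. Within 500 bp of a start site of any protein-coding gene lay 4 of the 61, sbb peak 13 among them. The 5 longest transcripts have 45 introns, and 12 of these introns held a summit. A summit was found in 11 of the 15 introns of 4 kb or more and in 1 of the 24 introns under 1 kb. These shares were not counted over introns of other genes, and the genes were chosen by their summits, so nothing is read from them. Gaps between neighbouring summits of 1 gene had a median of 2348.5 bp over 56 gaps, with 11 gaps under 1 kb and 16 over 5 kb. The plot along each gene shows the summits in the long introns and none over the clustered exons at the 3' end of CHES-1-like and shn.

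**Figure D2:**
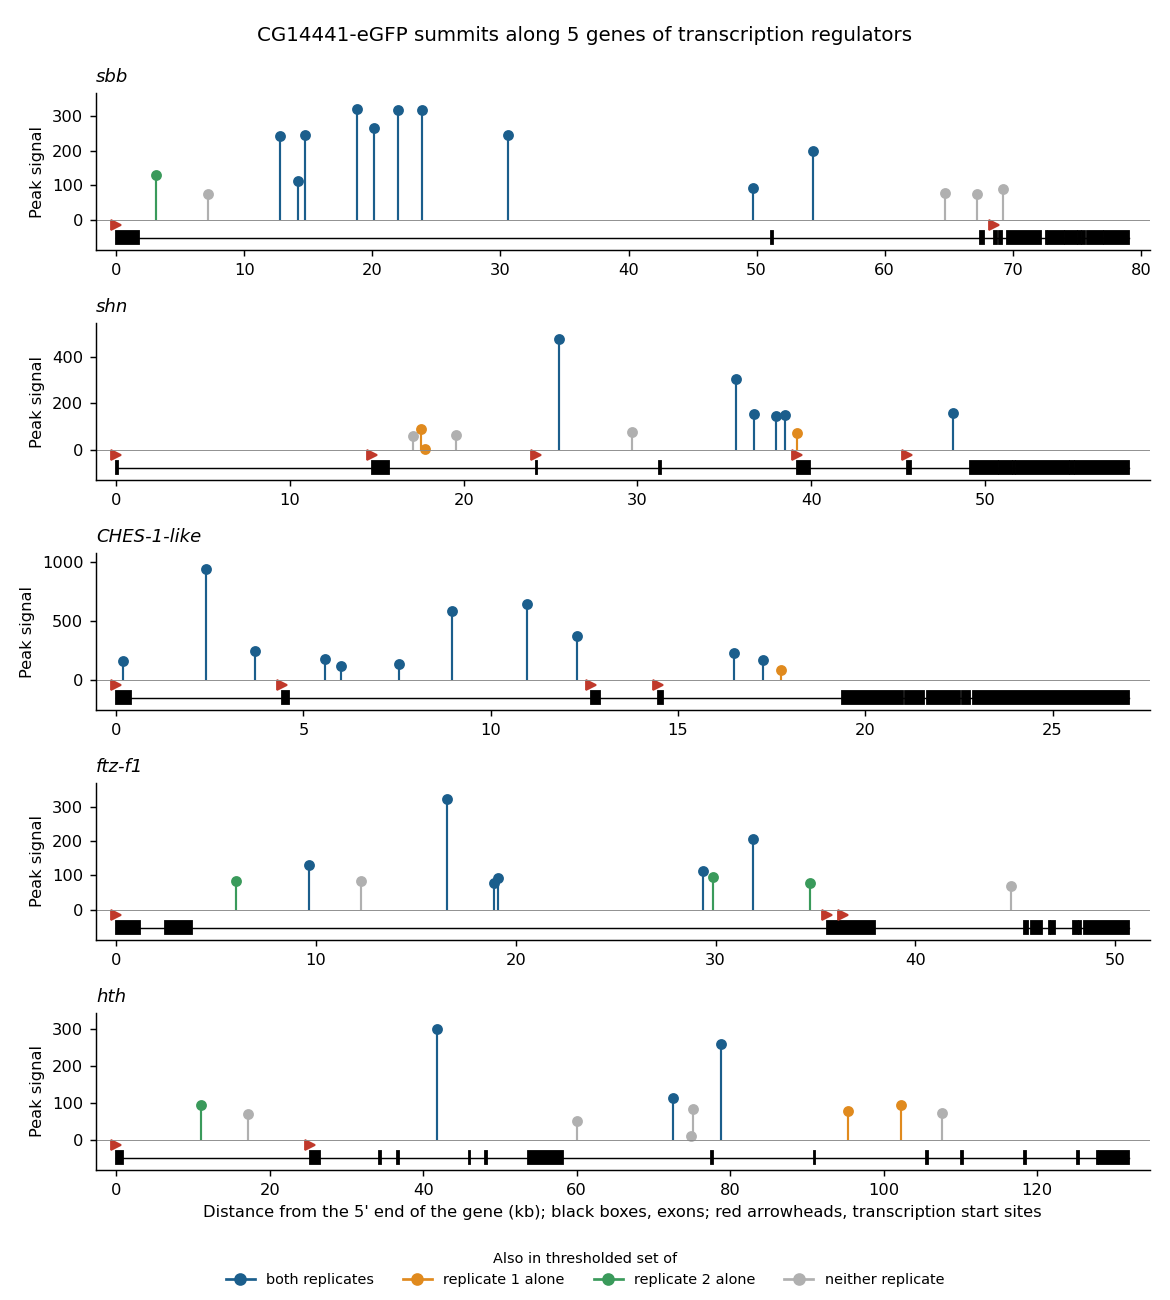
Summits along the 5 genes, with distance from the gene's 5' end in kb on the x axis and the peak's signal on the y axis, which has its own scale in each panel. Colour gives the replicate sets that also hold the peak, black boxes are exons of any transcript and red arrowheads start sites; CHES-1-like reaches a signal of 936, while sbb, ftz-f1 and hth stay at or below 322.

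CHES-1-like, on the minus strand of X:7682338-7709385 (dm6), was the shortest of the 5 genes and had the strongest peaks. Its peak 2, numbered from the 5' end, had a signal of 936, with 540 in the first and 402 in the second replicate column (471 ± 97.8, mean ± SD, n = 2). Peak 8 had 340 and 298 (319 ± 29.4) and a signal of 643, and peak 7 had 303 and 265 (284 ± 26.6) and a signal of 584. The weakest, peak 12, had 51.6 and 34.8, and a signal of 80.9. All 3 of the strongest were thus higher in both columns than any peak of the other 4 genes. Intron 1 of the longest transcript, 18998 bp and 70.2% of the gene, held 11 of the 12 summits. Peak 1 lay in the first exon, 177 bp downstream of the start of transcript RC, with a signal of 161, and peak 9 lay 371 bp upstream of the start of RA, with a signal of 368. The 5 closest summits in a row, peaks 2 to 6, spanned 5.17 kb. Of all 12 peaks, 11 were in the thresholded sets of both replicates, and peak 12 was in that of replicate 1 alone. The sequences of its strongest peak and of peak 10 are shown on the plus strand, since they carry different A/T-rich words, given in capitals (X:7706844-7707129 and X:7692822-7692944, dm6). These words are among the 5 described with the other sequence features.
CHES-1-like peak 2: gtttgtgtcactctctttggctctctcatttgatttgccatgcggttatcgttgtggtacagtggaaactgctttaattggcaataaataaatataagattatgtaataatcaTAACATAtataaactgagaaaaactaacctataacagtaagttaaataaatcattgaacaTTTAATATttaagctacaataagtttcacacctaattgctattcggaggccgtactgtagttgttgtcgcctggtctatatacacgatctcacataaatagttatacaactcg
CHES-1-like peak 10: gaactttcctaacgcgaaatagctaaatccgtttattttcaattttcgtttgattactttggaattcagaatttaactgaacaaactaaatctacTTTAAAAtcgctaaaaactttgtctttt

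In ftz-f1, on the minus strand of 3L:18750607-18801309, 1 peak stood above the rest. Peak 4, 16.5 kb from the 5' end, had 167 in the first and 164 in the second replicate column (166 ± 1.90, n = 2) and a signal of 322. Peak 9 followed with 86.7 and 110 and a signal of 206, and peak 2 with 54.7 and 75.5 and a signal of 130. The 11 signals had a median of 91.6, and the lowest was 70.0, at peak 11. Intron 2 of the longest transcript, of 33674 bp, held 10 summits and intron 3 held 1. Near its 3' end intron 2 includes the start sites of the shorter transcripts RA, RC and RD, and the nearest summit, that of peak 10, lay 818 bp upstream of the start of RC and RD. A long noncoding RNA gene, lncRNA:CR45939, overlaps ftz-f1, and 6 of the 11 summits also lay within it, so that intron and noncoding gene cannot be told apart for them. The widest gap between summits was 10240 bp, between peaks 6 and 7. That gap includes a roo transposable element of 8.62 kb, which held 0 summits and 0 of the 66 ranked candidates of ftz-f1. Both replicate sets held 6 of the 11 peaks, replicate 2 alone 3 (peaks 1, 8 and 10), and neither set held peaks 3 and 11. The strongest peak is shown on the plus strand (3L:18784675-18784833); it carried none of the 5 words and so has no capitals.
ftz-f1 peak 4: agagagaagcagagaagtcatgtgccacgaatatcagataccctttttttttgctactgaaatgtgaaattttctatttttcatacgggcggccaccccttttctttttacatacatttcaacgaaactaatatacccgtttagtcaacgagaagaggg

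The gene hth, on the minus strand of 3R:10507561-10639568, was the longest and the most thinly and weakly covered of the 5. Peak 3 had 145 in the first and 149 in the second replicate column (147 ± 3.11, n = 2) and a signal of 299. Peak 8 had 147 and 113 (130 ± 23.6) and a signal of 259, and peak 5 had 45.3 and 62.3 and a signal of 114. These were also the 3 peaks that both replicate sets held. The others had signals of 9.45 to 95.0, and the gene's median was 83.1. Replicate 1 alone held peaks 9 and 10, replicate 2 alone peak 1, and neither set held peaks 2, 4, 6, 7 and 11. Summits were spread over the gene: 4 in intron 6 of transcript RC, 2 in intron 8, and 1 each in introns 3, 7 and 9. Peaks 1 and 2 lay upstream of RC, in intron 1 of transcript RE, which is 24823 bp long. The widest gap, 24665 bp, lay between peaks 2 and 3 and includes the start site of RC, from which the nearest summit was 8132 bp away. Peaks 3 and 8 are shown on the plus strand (3R:10597687-10597848 and 3R:10560711-10560844), with a word in capitals where there is one.
hth peak 3: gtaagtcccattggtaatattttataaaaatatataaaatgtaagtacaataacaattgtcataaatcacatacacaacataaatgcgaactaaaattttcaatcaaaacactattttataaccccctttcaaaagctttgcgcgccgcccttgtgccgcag
hth peak 8: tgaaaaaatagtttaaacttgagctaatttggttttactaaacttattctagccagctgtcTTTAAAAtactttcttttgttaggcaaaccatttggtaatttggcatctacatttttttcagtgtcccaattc

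The 12 summits of shn, on the plus strand of 2R:11159086-11217394, divided evenly between its 2 longest introns. Intron 1 of transcript RE (31126 bp) held 6, and intron 2 (17848 bp) 6. Peak 5, in intron 1 and 1330 bp downstream of the start of transcript RA, was the strongest, with 259 in the first and 221 in the second replicate column (240 ± 26.4, n = 2) and a signal of 475. Peak 7 had 178 and 132 (155 ± 32.6) and a signal of 304, and peak 12 had 98.3 and 78.2 and a signal of 160. Both introns thus held a peak above 300, but the other 5 summits of intron 1 had signals of 4.60 to 88.9 and those of intron 2 had 73.8 to 160. Peaks 7 to 11 formed the tightest run of 5 summits in any of the 5 genes, 3.50 kb long. Its last, peak 11, lay 3 bp from the start site of transcript RB, in that transcript's first exon, with a signal of 73.8. Both replicate sets held 6 peaks, replicate 1 alone held peaks 2, 3 and 11, and neither held peaks 1, 4 and 6.

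The gene sbb, on the minus strand of 2R:18278198-18357296, held the most summits of the 5, and 14 of its 15 were in intron 2 of the longest transcript. That intron has 65649 bp and makes up 83.0% of the gene, and the remaining summit, peak 15, lay in intron 4. Peaks 6, 9 and 8 were the strongest and near one another in level. Peak 6 had 145 in the first and 175 in the second replicate column (160 ± 21.6, n = 2) and a signal of 320. Peak 9 had 152 and 150 (151 ± 0.83) and a signal of 318, and peak 8 had 182 and 120 (151 ± 43.4) and a signal of 317. The order is by signal, which has no SD, and each mean rests on n = 2, so the order of the 3 is not resolved. The lowest signal was 75.7, at peak 2, and 7 of the 15 peaks had a signal above 200, all between 12.8 and 30.6 kb from the 5' end. Then came a gap of 19105 bp. The weaker peaks 13, 14 and 15 towards the 3' end, with signals of 76.1 to 89.2, were in neither replicate set, as was peak 2. Of the 9 other genes annotated within or across sbb, only CG14502, nested in it, held any of these summits, 2 in number. They were those of peaks 13 and 14, at 281 and 878 bp from a CG14502 start site. Peak 15 was also nearest to a start site of CG14502, at 676 bp. A further peak with a signal of 415, above all those inside sbb, had its summit 138 bp upstream of the gene's 5' start site and so was not counted.

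Over the 5 genes, signals ran from 4.60 to 936 with a median of 114 (quartiles 78.8 and 245), while the other 5054 peaks had a median of 116 (quartiles 82.7 and 194). The medians by gene were 200 in CHES-1-like, 91.6 in ftz-f1, 83.1 in hth, 117 in shn and 200 in sbb. Among the 500 strongest peaks of the series were 5 of the 61 (8.20%), 4 in CHES-1-like and 1 in shn, beside 9.78% of the whole set. The number of summits chose these genes, so nothing is concluded from it. The median signal of the 61 peaks together was near that of the series, while the medians by gene ran from 83.1 to 200. Peak width split them. The caller gave 41 of the 61 peaks a common width of 324 bp, and 20 (32.8%) were narrower, at 83 to 286 bp, beside 23.0% narrower peaks in the series. The narrower peaks had a median signal of 302, and all 20 were in both replicate sets. The 324 bp peaks had a median signal of 88.9, and 16 of 41 were in both. The split in signal is not particular to these genes. In the whole series the medians were 323 for narrower peaks and 97.8 for the rest. The share of series peaks in both replicate sets was not counted by width.

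Both replicate thresholded sets held 36 of the 61 peaks, or 59.0%, and 55.4% of the series peaks did. Replicate 1 alone held 6 and replicate 2 alone 5, and 14 (23.0%) were in neither, beside 21.0% of the series. The share in both ran from 11 of 12 in CHES-1-like to 3 of 11 in hth, with 10 of 15 in sbb, 6 of 12 in shn and 6 of 11 in ftz-f1. Peaks in both had signals of 76.8 to 936 with a median of 217. Those in neither had 9.45 to 89.2 with a median of 74.3, so these ranges overlap only in their ends. No peak of CHES-1-like was in neither set. Counted from each replicate's own thresholded set, CHES-1-like had 12 summits in both replicates, while hth had 6 in replicate 1 and 4 in replicate 2, ftz-f1 7 and 10, shn 10 and 7, and sbb 10 and 11.

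**Figure D3:**
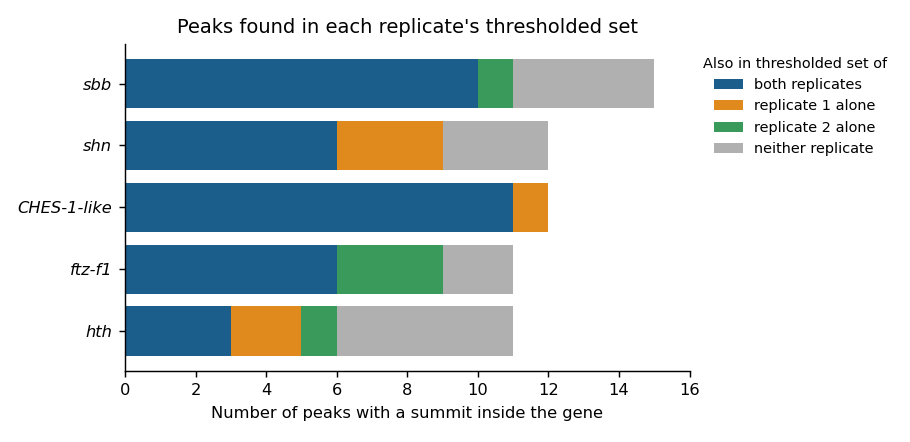
Peaks in each gene by the replicate thresholded sets that overlap them by at least 1 bp; the x axis counts peaks. CHES-1-like has 11 of 12 peaks in both sets, and hth 3 of 11 with 5 in neither.

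The replicate columns tracked each other over the 61 peaks, with a Spearman correlation of 0.84 across peaks, and 0.81 across the other 5054. These points share 2 libraries and only peaks that passed a reproducibility threshold are among them. The first column was higher at 35 peaks (57.4%) and the second at 26, and the first was higher at 61.7% of the other peaks. The SD over the 2 columns had a median of 12.3% of the mean, beside 14.4% for the other peaks. A difference of more than 1.5-fold was found at 10 peaks, among them shn peaks 2 and 3, which share the same entries. Such differences were not counted over the other peaks. The largest, 2.57-fold, was at sbb peak 1, with 36.6 and 94.2. The next largest was also in sbb, at peak 7, with 70.9 and 177. These 2 sbb peaks were higher in the second column, although in sbb as a whole the first column was higher at 8 of 15 peaks.

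**Figure D4:**
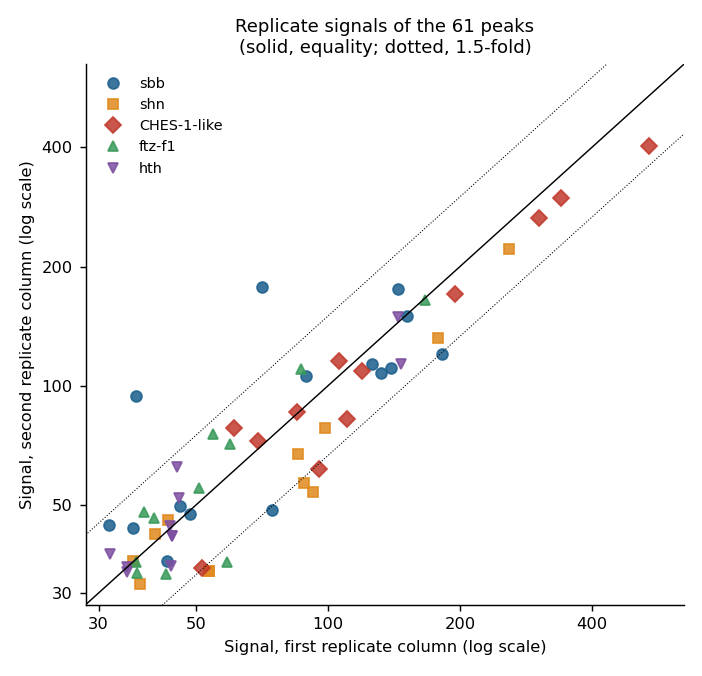
Signal of each of the 61 peaks in the first (x axis) and second (y axis) replicate column, both on log scales; the solid line marks equality and dotted lines 1.5-fold. Most points lie between the dotted lines, CHES-1-like peak 2 is farthest out at 540 and 402, and 2 sbb peaks lie well above.

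Some of the counted summits were not separate from their neighbours. Merging peaks that overlapped left 58 sites, with 1 overlapping pair each in shn, hth and ftz-f1. In shn, peaks 2 and 3 had summits 201 bp apart and signals of 88.9 and 4.60, but the same entries in both replicate columns, 53.6 and 34.1. In hth, peaks 6 and 7, 200 bp apart, had signals of 9.45 and 83.1 and shared 44.2 and 41.7. In ftz-f1, peaks 5 and 6, 202 bp apart, shared the entry of the second column, 35.9. The replicate values of the shn pair, and of the hth pair, are thus 1 measurement and not 2. For the ftz-f1 pair this holds in the second column alone, since the first column had 36.5 and 58.9. In the series, 334 peaks (6.53%) shared both entries with another peak, and 130 (2.54%) had a signal under 20, to which the weak peaks of shn and hth belong.

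The ranked list of candidates, from which the authors' reproducibility threshold selects, had 448 entries with a summit in the 5 genes, and 13.6% of them were in the thresholded set, beside 4.21% of all 121431 candidates. This share was 36.4% of 33 in CHES-1-like, 15.4% of 78 in shn, 16.7% of 66 in ftz-f1, 14.7% of 102 in sbb and 6.51% of 169 in hth. It follows from the count that chose the genes and is given as a description. The threshold is a global irreproducible discovery rate (IDR) of 0.01. The peak of CHES-1-like just inside it was peak 12, with a rate of 0.0034 and a signal of 80.9, and the candidate just outside had a rate of 0.0103 and a signal of 73.5. In ftz-f1 the rate was 0.0060 at peak 11 (signal 70.0) and 0.0112 at the first candidate left out, whose signal was 91.6. In hth it was 0.0071 at peak 11 and 0.0241 outside, in shn 0.0078 at peak 4 and 0.0181 outside, and in sbb 0.0057 at peak 14 and 0.0133 outside. The relaxed series set added 8 peaks in these genes that overlap none of the 61, 3 of them in ftz-f1.

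DNA at most of the summits was rich in A and T. In the 101 bp around the summit, A+T had a median of 67.3% in the 61 peaks and 61.5% in the flanks of the same peaks 400 to 500 bp away. In the other 5054 peaks it was 66.3% at summits and 57.0% in flanks, and in the genome as a whole 57.8%. By gene, summits had a median of 69.8% in CHES-1-like, 64.4% in ftz-f1, 62.4% in hth, 64.4% in shn and 67.3% in sbb. A+T was higher at the summit than in the flanks in 38 of 61 peaks (62.3%), against 71.7% of the other peaks. Of the 20 narrow peaks, 17 were higher at the summit, with medians of 71.3% at summits and 59.5% in flanks. Of the 41 peaks of 324 bp, 21 were higher, with medians of 62.4% at summits and 61.5% in flanks. A+T was not split by peak width in the other peaks. The lowest A+T was at ftz-f1 peak 1 with 33.7% and shn peak 11, at the RB start site, with 38.6%. Other summits below the genome's 57.8% included ftz-f1 peak 7 and hth peak 2 with 44.6% each. Also below it were hth peak 4 with 46.5%, hth peak 6 with 47.5% and sbb peak 2 with 51.5%, among others.

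**Figure D5:**
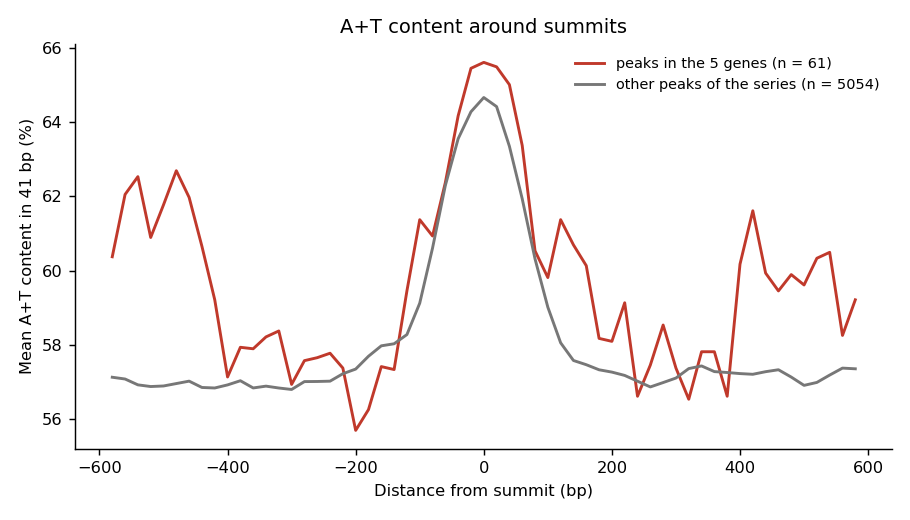
Mean A+T content in 41 bp windows (y axis, not starting at 0) by distance from the summit in bp (x axis, plus-strand direction) for the 61 peaks in the 5 genes and for the 5054 other peaks. Both lines peak at the summit, at 65.6% and 64.7%, and the line for 61 peaks is noisier in the flanks.

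The 5 words of 7 bases most over-represented at summits outside these genes, relative to flanks, were TATTAAA, its overlapping neighbour ATATTAA, then ATCGATA, followed by TTTAAAA and last by TAACATA, each counted on both strands. At least 1 of them lay within 50 bp of the summit in 11 of the 61 peaks (18.0%), beside 28.8% of the other peaks. The words were picked for their frequency at the summits of those other peaks. Their share there is raised by that choice, so nothing is read from the difference. CHES-1-like had 4 such peaks, sbb 4, hth 2 and shn 1, and ftz-f1 had none of its 11. TATTAAA and ATATTAA overlap in sequence, and both occur in the strongest CHES-1-like peak, whose sequence is printed with that gene, as does TAACATA. In the 61 peaks ATATTAA was found at 6 summits, but also in 3 of the downstream flanks and 6 of the upstream flanks.

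Short binding motifs of known fly factors, searched within 100 bp of the summit on both strands, gave small numbers. GAGAG, the core of the GAGA factor motif, was in 14 of the 61 windows (23.0%) and in 21 of their flanks (34.4%), beside 22.2% of the other peaks' windows and 24.4% of their flanks. TAATTA, a homeodomain core, was in 13 windows (21.3%) and 12 flanks (19.7%), beside 16.1% and 12.4% for the other peaks, and 5 of these 13 windows were in sbb. CGATA, the BEAF-32 core, was in 8 windows (13.1%) and 9 flanks (14.8%), beside 27.3% and 22.2% for the other peaks. The longer TATCGATA of DREF, which contains it, was in 0 windows and 0 flanks, beside 3.01% and 0.61%. Motifs searched for the proteins that these genes encode were rare too. AAGGTCA, bound by Ftz-F1, was in 2 windows (3.28%), both in sbb (peaks 5 and 11), and in 1 flank. In the other peaks it was in 1.37% of windows and 1.92% of flanks. TGATTGAT, searched for Hth and Exd together, was in 3 (CHES-1-like peak 1, ftz-f1 peak 4 and shn peak 1) or 4.92%, and in 0 flanks. Whether Hth binds this motif was not tested. In the other peaks it was in 0.99% of windows and 1.17% of flanks. TGACAG, bound by Hth alone, was in 2 windows (3.28%), CHES-1-like peak 6 and sbb peak 12, and in 1 flank. In the other peaks it was in 6.87% of windows and 6.15% of flanks. GTAAACA, a forkhead site, was in 2 windows (3.28%), both in sbb, and in 1 flank, beside 5.44% and 4.47% for the other peaks. Of the remaining motifs, CAGCTG was in 4 (6.56%), beside 9.26% of the other peaks, and CACGTG and CAGGTA (Zelda) were in 2 each (3.28%), beside 1.88% and 4.29%. GGTCACACT (M1BP) was in 1 (1.64%), hth peak 7, beside 1.46%. Counts of this size in 61 windows describe these letters alone.

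Of 66 relatives and partners of the 5 genes, in 5 lists, 22 (33.3%) held at least 1 summit, beside the 13.2% of all protein-coding genes. Of those of 20 kb or more, 15 of 19 (78.9%) did, beside 55.8% of protein-coding genes of that length, and of the shorter ones 7 of 47 (14.9%), beside 9.84% of protein-coding genes under 20 kb. These differences were not tested. Among 20 other nuclear receptors beside ftz-f1, 7 held a summit, led by Hr4 with 9 in 66.0 kb, then the ecdysone receptor gene EcR with 5, Eip75B with 4 and Hnf4 with 3. Among 16 other forkhead genes beside CHES-1-like, foxo, which acts in insulin signalling, held 3 and FoxK 2, and 14 held none. Of 6 other TALE homeodomain genes beside hth, exd included, 0 held a summit, and their median length was 8.11 kb. Of 15 other genes of the Dpp pathway beside shn, 7 held a summit: the extracellular antagonist sog held 5, the receptors tkv and wit 4 and 2, and the inhibitory Smad gene Dad 3, with Mad, bi and dpp at 1 each, while brk and Med held 0. Of 9 corepressors and partners beside sbb, 6 held a summit, with 3 in Gug, the Atrophin gene, and 2 each in CtBP and lola.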

How the data were processed

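Peak lists from 1 ChIP-seq group of 2 biological replicates were used. Per the labels, the lists are on dm6. Which aligner and caller made them is not given in the sources used here. Of 8 deposited lists 1, the relaxed ranked list, was not used. The signal that the authors deposited comes from their caller, on an unstated scale, and is compared within a list only. The deposited offset of the summit (unit other) counts bp from where a peak begins. Deposited IDRs are −log10 values, converted here to rates. The ranked series list holds 2 deposited signal columns, 1 per replicate and without replicate numbers. Mean ± SD is over these. In the 5 genes the first column held the values of replicate 1's own ranked list, and the second those of replicate 2. The exception was ftz-f1 peak 5, where the strongest overlapping entry of replicate 1 was 58.9, that of peak 6. The lists hold no depth. Nothing in the labels ties the replicates to anything beyond being biological replicates.

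Coordinates are 1-based. Genes came from Ensembl release 115 (BDGP annotation 6.54) and sequence from the RefSeq copy of the Release 6 genome, the assembly that dm6 names. Computation was in Python 3.11.15 with pandas 2.3.3, numpy 2.4.6 and scipy 1.17.1, and plots were drawn with matplotlib 3.10.9. A peak was in a replicate set if it overlapped a thresholded peak by at least 1 bp. Introns are numbered in the longest transcript. Words of 7 bases were ranked by their ratio of summit to flank windows outside the 5 genes, among those in at least 3% of summit windows, with 0.5 added to both counts. Summit counting and word ranking were tested on simulated data. The members and lists were chosen with earlier results of these data known. No significance test was made, since the genes were chosen by their summits, peaks of a gene are not replicates, and there is 1 group. Named are the 5 genes; the 10 genes with most summits, with ties; the 3 genes nearest in length to each; up to 4 genes a list; and in each gene the 3 strongest peaks, the weakest, and those in neither replicate set. Other peaks and genes named, and the intron limits of 1 and 4 kb, were chosen after their values were seen. In the gene lists 1 symbol was not matched and is not analysed here.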

Additional observations from a re-analysis of the deposited data

How the results depend on the processing

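No paired analysis was possible because the series holds 1 group alone. With peaks of at least the series' median signal alone, summits fell to 9 in sbb, 6 in shn, 3 in ftz-f1 and 2 in hth, while CHES-1-like kept 10 of 12. Leaving out a replicate, by using the other's own set, gave 7 to 10 in shn, 7 to 10 in ftz-f1 and 4 to 6 in hth; the set of replicate 2 gave the low counts in shn and hth, and that of replicate 1 in ftz-f1. Requiring 50% of both peaks to overlap put 44.3% of the peaks in both replicate sets in place of 59.0%. The strongest peak of each merged site gave a median signal of 131 in place of 114. Merging left out the weaker peak of each overlapping pair, with signals of 4.60, 9.45 and 76.8, all below the median. The cause of the other changes was not tested. The relaxed set, 1 kb of gene extension, merging, the longest transcript and overlap in place of summits left each gene's count within 1.5 times. GAGAG within 50 bp was at 9.84% of summits. Unknown depth and an unstated signal scale limit the comparison of levels.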

Other observations

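The gene CG14441, whose product was tagged, itself held 12 summits in 19.9 kb, or 6.04 per 10 kb, a higher density than in any of the 5 genes described. Of these 12 peaks, 11 had an intronic summit, 8 were in both replicate sets, and signals ran from 7.70 to 268 with a median of 109. Replicate 1's own set had 8 summits there and that of replicate 2 had 9.

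Within the 5 genes, some peaks of 1 replicate's own set overlapped no peak of the conservative series set: 3 in replicate 1 (2 in shn and 1 in ftz-f1) and 3 in replicate 2 (1 in shn and 2 in ftz-f1). Of the 61 conservative peaks, 7 overlapped no peak of the relaxed series set, 11.5%, beside 8.21% of the whole conservative set.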
